A study of Mus musculus with 24 samples.

Results

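Striatal neuronal nuclei of mice that carry the Huntington's disease allele but lack Msh3 were compared with those of wild type mice, peak by peak, by ATAC-seq read counts. The comparison took 12 of the 24 libraries of the series. The 6 double mutants, labelled Msh3-/- X Het (Q140) KI and written Q140_Msh3KO in library names and plots, were heterozygous for the Q140 knock-in of Htt and carried no intact Msh3. The 6 Wild type animals (WT) carried neither allele. Each group held 3 females and 3 males, all aged 12 months and on a C57BL/6 background. The other 12 libraries, 6 Het (Q140) KI (Q140) and 6 Msh3-/- (Msh3KO), entered the fit to estimate the spread and are quoted where they bear on a double mutant value. How the Msh3 allele was made, how many founder lines were used and how long the CAG repeats were in these animals are details the sources used here do not give.

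Huntington's disease is caused by an expanded CAG repeat in the first exon of Htt, and the striatal projection neurons (SPNs), the inhibitory output neurons of the striatum, are lost first and most. The inherited repeat keeps growing in these neurons through life. Growth needs the mismatch repair complex MutSβ, of which Msh3 is a part, so an animal without Msh3 carries an expanded allele that stays close to its inherited length. In ATAC-seq the transposase Tn5 cuts DNA that is not tightly wrapped in nucleosomes, and reads pile up into peaks at promoters, enhancers and other open sites. The contrast of double mutants with WT therefore measures what differs in open chromatin when the inherited expansion is present and Msh3 is absent. Both alleles differ between the groups, so an effect of the repeat and an effect of losing Msh3 cannot be told apart within it.

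Nuclei were stained for NeuN, a protein of most neuronal nuclei, and sorted before transposition. Reads in peaks numbered 5823567 to 11736557 per library in double mutants and 5128118 to 9263371 in WT. A typical (median) tested peak collected 25.5 counts in a library. All levels below are CPM, reads of a peak scaled to the reads in all peaks of its library, with TMM normalization. The promoter peak of Ppp1r1b, which encodes the SPN phosphoprotein DARPP-32, had a median of 57.6 CPM per kb in double mutants and 60.9 in WT. That of Rbfox3, which encodes NeuN itself, had a median of 21.9 CPM per kb in both groups. Promoter peaks of Drd1, Drd2, Adora2a, Penk and Bcl11b were present as well, while Gfap, Aqp4, Cx3cr1, Cldn5 and Slc17a7 had no tested promoter peak. Markers of other cells were not all absent. The promoter peak of Mog, a myelin gene of oligodendrocytes, had a median of 5.28 CPM per kb in double mutants and 4.75 in WT, against 10.2 in double mutants and 8.98 in WT at Drd2. That of Pvalb, an interneuron gene, had a median of 5.83 CPM per kb in double mutants and 6.80 in WT. A mixture of nuclei gives a sum, so fewer nuclei of a type and less open chromatin per nucleus cannot be told apart. The double mutant library Q140_Msh3KO M1 stood apart, with 12.7% of its counts in its 10 highest peaks, against 3.33% to 4.74% in the other double mutants. A single peak at the Crebzf promoter took 8.13% of its counts and 0.627% to 0.984% of those in the other 11 libraries. Counts that rest on single libraries are given with and without them.

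Few peaks differed. Of 146155 tested peaks, 768 passed an adjusted p of 0.05 (edgeR quasi-likelihood test, Benjamini-Hochberg adjustment; 0.525% called), and 14353 had an unadjusted p under 0.05. Accessibility was higher in double mutants at 368 peaks (0.252%) and lower at 400 (0.274%). The differences were moderate, with a median log2 fold change (double mutant over WT) of 0.88 among the higher and -0.74 among the lower. An absolute log2 change above 1 was reached by 107 higher and 60 lower peaks. The CPM ranges of the 6 double mutants and the 6 WT animals did not overlap at 439 of the called peaks, 201 higher and 238 lower. Such separation held at 1326 of all tested peaks, or 0.907%. In the same fit, 10.3% of peaks were called for Q140 against WT and 0.013%, or 19 peaks, for Msh3KO against WT. Those comparisons, and all later values of Q140 or Msh3KO against WT, share the WT libraries with the one described here. Double mutants set against Q140 gave 0.529% and against Msh3KO 0.116%.

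The number of calls depended on single animals. It was 200 without Q140_Msh3KO M3, 352 without Q140_Msh3KO F1 and 452 without Q140_Msh3KO M2. It was 342 without WT M3, 351 without WT M1 and 442 without WT F3, against 768 with all libraries. The higher peaks alone numbered 104 without Q140_Msh3KO M3, 187 without F1, 229 without M2 and 563 without M1 of that genotype. They numbered 153 without WT M3, 197 without WT M1 and 240 without WT M2. The lower peaks alone numbered 96 without Q140_Msh3KO M3, 165 without either F1 or F3 and 223 without M2. They numbered 154 without WT M1, 155 without WT F3 and 189 without WT M3. The share of counts in promoter peaks ran from 20.1% to 24.8% in double mutants and from 18.4% to 21.6% in WT. The 24.8% was that of Q140_Msh3KO M1, where the Crebzf promoter peak alone took 8.13% of counts, and the next highest double mutant had 22.2%. With that share as a term 318 peaks were higher and 815 lower. The part of the Crebzf peak in this result was not tested.

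Most called peaks lay away from gene starts, in the stretches where enhancers are found. Intergenic annotation applied to 60.6% of higher and 50.5% of lower peaks, against 37.1% of all tested peaks. Promoters accounted for 3 higher peaks (0.815%) and 10 lower peaks (2.5%), against 6.96% of all. The higher peaks lay farther out than the lower. Their median distance to the nearest annotated start was 98.6 kb, against 27.2 kb for the lower and 28.8 kb for all tested peaks, and 49.7% of them lay beyond 100 kb, against 19.3% of the lower and 21.6% of all. The share of peaks called in either direction was 0.155% within 1 kb of a start and 1.33% at 500000 bases or more, where 37 peaks were higher and 12 lower. Called peaks were also wider than most, with medians of 563 bases for the higher and 550 for the lower against 397 for all. Width and level set how many counts a peak holds. Only 0.0705% of peaks under 300 bases were called, against 1.09% of those from 600 to 1000 bases and 0.345% of those of 1000 bases or more. By mean level, 0.112% of peaks under 2 CPM were called, 1.02% of those from 4 to 8 CPM and 0.22% of those of 16 CPM or more. The part of width and level in the other differences was not tested.

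**Figure D1:**
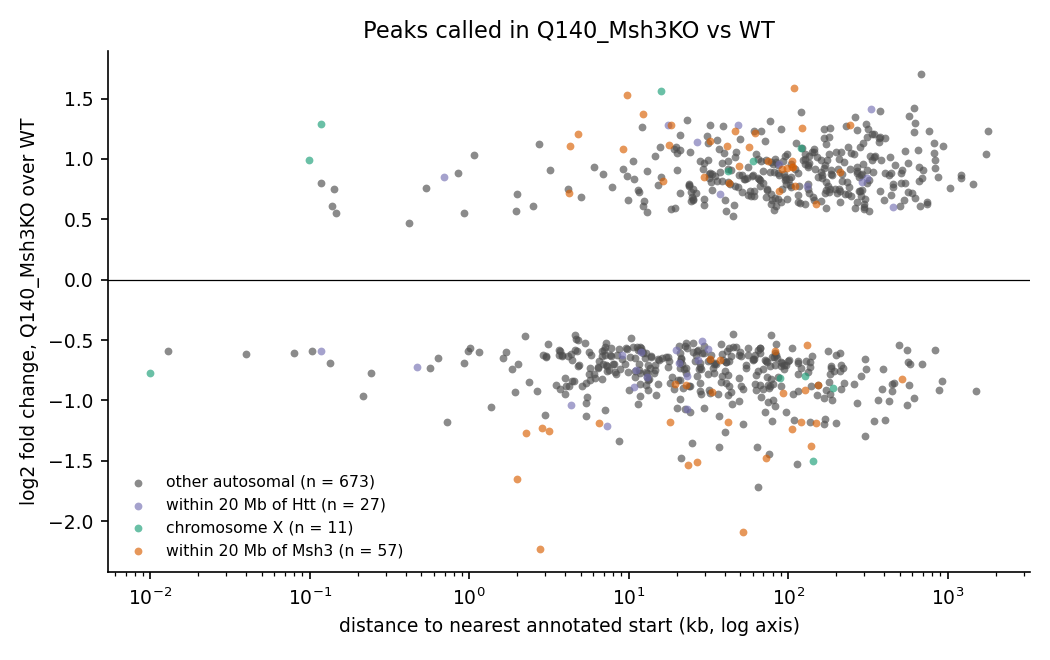
Each point is 1 of the 768 called peaks, with the log2 fold change of Q140_Msh3KO over WT on the vertical axis and the distance to the nearest annotated start in kb on a logarithmic horizontal axis, where distances under 10 bases are drawn at 10 bases. Colours give the region, and the higher peaks reach farther from starts (median 98.6 kb) than the lower (median 27.2 kb).

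Outside the chromosomes' stretches within 20 Mb of Htt and Msh3, and off X and Y, 673 of 138366 peaks were called (0.486%), 321 higher and 352 lower. The 10 higher of these with the largest changes and separate groups lay 12.0 to 678 kb from the nearest start. The gene given with a peak is that of the closest start, and several peaks lie inside a different gene. The largest was an intergenic peak of 789 bases on chromosome 4 (79271921 to 79272709, build GRCm38 as for all positions), whose nearest start, 678 kb away, is that of the transcript A430085M09Rik. It held 3.66, 4.79 and 9.62 CPM in double mutants (lowest, median and highest) and 1.03, 1.85 and 2.19 CPM in WT. Every double mutant was above every WT animal, which the choice of these 10 peaks required. The log2 change was 1.70 ± 0.21 (SE, n = 6 each; edgeR adjusted p = 4.6e-06). It was 1.67 in females and 1.72 in males. In the same fit this peak averaged 10.6 CPM in Q140 and 2.60 in Msh3KO animals, and its level in double mutants was below that in Q140 (log2 change -0.91, edgeR adjusted p = 0.00159).

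A second distal gain lay on chromosome 9 (94159295 to 94160003), 378 kb from Dipk2a, a gene of the divergent protein kinase family. The peak held 9.04, 10.5 and 13.9 CPM in double mutants and 2.79, 3.98 and 5.10 CPM in WT. Its log2 change was 1.40 ± 0.17 (SE, n = 6 each; edgeR adjusted p = 2.5e-06). Kynu, which encodes kynureninase of tryptophan breakdown, had a peak 39.1 kb from its start (chromosome 2, 43515934 to 43516504) with 4.18, 5.31 and 8.60 CPM in double mutants and 1.61, 2.48 and 3.17 in WT. Its log2 change was 1.27 ± 0.19 (SE; edgeR adjusted p = 0.00029). The other 7 of the 10 were nearest to Prelid2 (log2 change 1.35), Igbp1b (1.35), Ern1 (1.32), Pik3c2g (1.31), Slitrk6 (1.30), Spag16 (1.29) and Slc39a10 (1.27). Ern1 encodes the stress sensor IRE1 of the endoplasmic reticulum, Slitrk6 a synaptic adhesion protein and Slc39a10 a zinc importer. Levels at most of these sites were low, and the Ern1 peak held a median of 1.67 CPM in double mutants and 0.682 in WT. Its call was lost without any one of 8 of the 12 libraries (edgeR adjusted p up to 0.136), that of Slc39a10 without Q140_Msh3KO M3 (edgeR adjusted p = 0.103) or WT M3, and that of Igbp1b without Q140_Msh3KO M3 (edgeR adjusted p = 0.0585). In Q140 against WT the same 10 had log2 changes of 1.11 to 2.61, all called. In Msh3KO against WT they had 0.22 to 0.79, none called. Both contrasts share the WT libraries used in the choice, which favours values above 0. In Q140 against Msh3KO, which uses none of those 12 libraries, the 10 had 0.327 to 2.055, with 8 called higher. Double mutants were called higher than Msh3KO at 3 of the 10 and lower than Q140 at 4.

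The 10 lower peaks were 202 to 485 bases wide and lay 24.8 to 301 kb from the nearest start. The largest fall was at an intergenic peak on chromosome 13 (64562169 to 64562653), 64.6 kb from Fam240b. It held 1.01, 1.53 and 3.47 CPM in double mutants and 4.54, 5.70 and 10.2 CPM in WT. No double mutant reached the WT range, a condition of choice for these 10 as well. The log2 change was -1.72 ± 0.29 (SE, n = 6 each; edgeR adjusted p = 0.00362). The peak 40.0 kb from Xkr5, a gene of the XK-related membrane protein family, fell to 1.52, 1.80 and 3.11 CPM in double mutants, against 3.52, 5.07 and 6.96 CPM in WT (chromosome 8, 18910707 to 18911101; log2 change -1.26 ± 0.20, SE; edgeR adjusted p = 0.0009). Groups were separate there too, as the choice required. The remaining 8 were nearest to 2410018L13Rik (log2 change -1.53), Mir3970 (-1.44), Lipi (-1.39), Cyp3a11 (-1.39), Skint6 (-1.35), Gm4425 (-1.29), Clic5 (-1.20) and Stk3 (-1.19). Stk3 encodes the Hippo pathway kinase MST2 and Clic5 a chloride intracellular channel protein. Cyp3a11, Skint6, 2410018L13Rik and Gm4425 sit in regions of near-identical gene copies, where reads can be split or misplaced by mapping, so those levels are uncertain. The calls of Lipi, Cyp3a11 and Clic5 were each lost without any one of 5 libraries (edgeR adjusted p up to 0.0989), and that of 2410018L13Rik without Q140_Msh3KO M3 (edgeR adjusted p = 0.0697). In Q140 against WT the 10 had log2 changes of -2.48 to -0.63, and in Msh3KO against WT of -0.61 to 0.25, with none called in the second. Both share the WT libraries used in the choice, which favours values below 0. In Q140 against Msh3KO, which uses none of those 12 libraries, the 10 had -2.324 to -0.025, with 9 called lower. Double mutants were called lower than Msh3KO at 6 of the 10, and 0 were called against Q140.

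**Figure D2:**
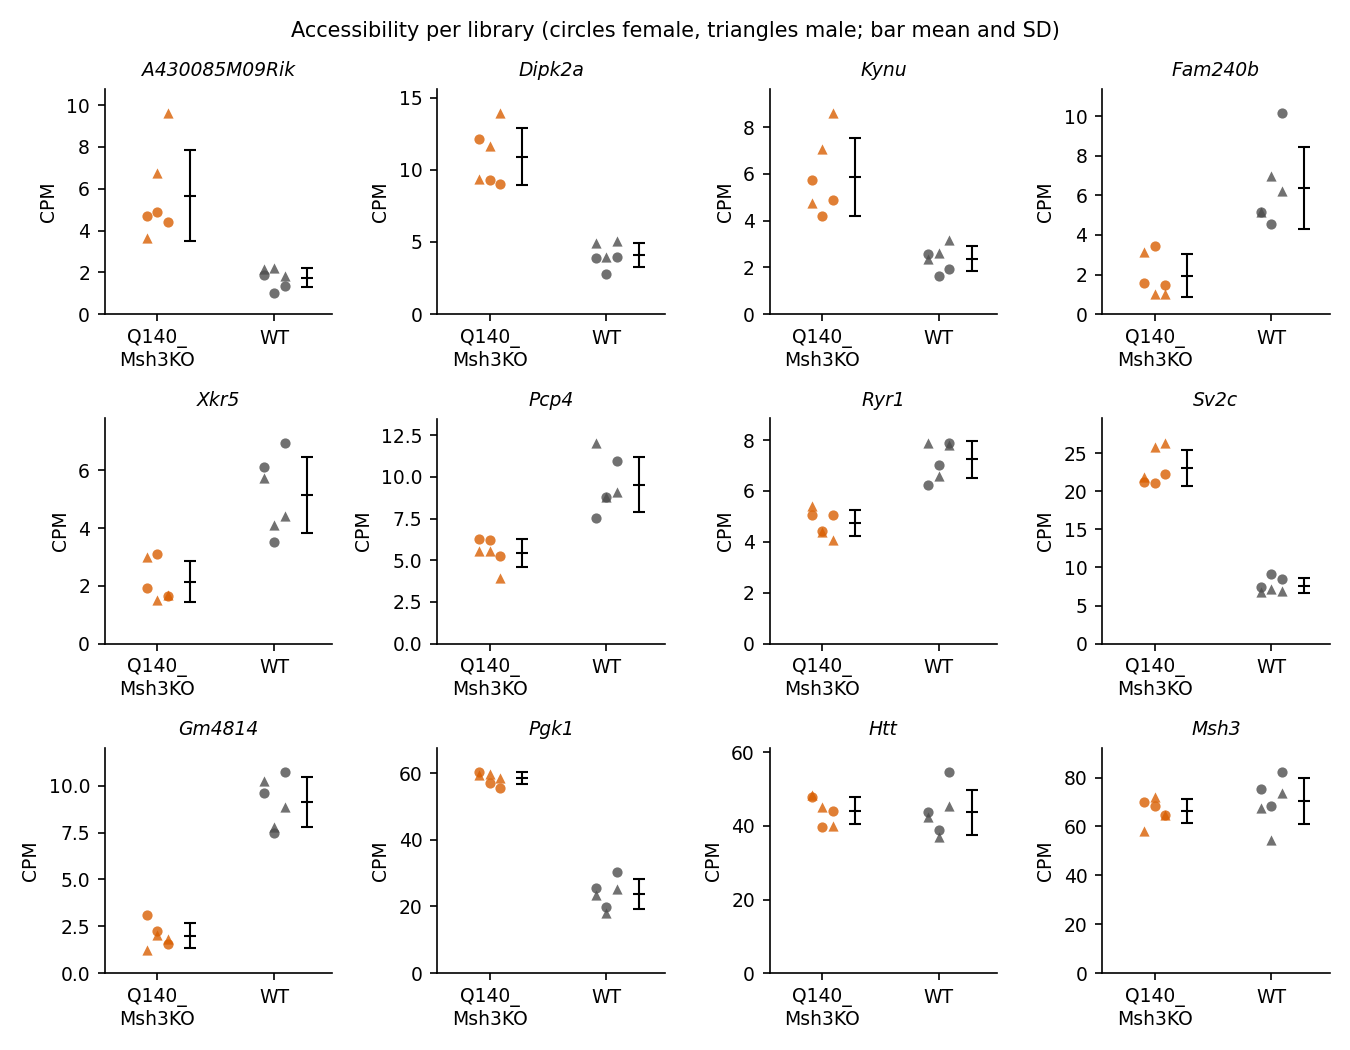
CPM of 12 peaks in each library, with Q140_Msh3KO to the left of WT in every panel; circles are females, triangles males, and the bar gives the mean and SD of 6 animals. The groups are separate at the first 10 panels, from A430085M09Rik to Pgk1, and overlap at the promoters of Htt and Msh3.

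Some genes had several called peaks. Genes were ranked by that count, so the count is no separate support. Over all tested peaks 0.252% were called higher and 0.274% lower. Among genes with 5 or more tested peaks outside both stretches, 4930529K09Rik (3 of 28 peaks), Gm2516 (3 of 32), Galc (3 of 45), Nedd1 (2 of 8) and Slc9a9 (2 of 9) had the most higher peaks. Galc encodes the lysosomal enzyme galactosylceramidase, Nedd1 a centrosomal protein and Slc9a9 an endosomal sodium-proton exchanger. The better supported Nedd1 peak, 115 kb from the start, held 7.99, 8.60 and 11.3 CPM in double mutants and 3.85, 5.01 and 5.72 CPM in WT. Its groups were separate (log2 change 0.88 ± 0.16, SE; edgeR adjusted p = 0.00398), and the call held without each library in turn. The most lower peaks were at 1700030C10Rik (3 of 30), Fmod (2 of 5), Mir7058 (2 of 6), Serpina3g (2 of 6) and Ifi27l2b (2 of 8). Fmod encodes fibromodulin, a proteoglycan of the extracellular matrix, and Ifi27l2b belongs to a family of interferon-induced genes. The peak 74.6 kb from 1700030C10Rik held 4.30, 4.79 and 5.89 CPM in double mutants and 7.02, 9.20 and 12.2 CPM in WT, again with separate groups (log2 change -0.87; edgeR adjusted p = 0.00264). Apart from it and the Nedd1 peak, the calls of these multiple peaks were each lost without 1 to 10 of the 12 libraries, with edgeR adjusted p up to 0.181. The 1700030C10Rik peaks, starting from 20646243 to 20889912, lie on the same part of chromosome 12 as those of Gm4425 (21855421) and 2410018L13Rik (23124124). Levels at the latter 2 were given above as uncertain. Whether mapping affects the 1700030C10Rik peaks as well was not tested, so these need not be separate results.

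At promoters, 13 of 10167 peaks were called (0.128%, against 0.525% of all peaks). The 3 higher were those of Pgk1 (log2 change 1.29), Rtl3 (0.99) and Vaultrc5 (0.55). The 10 lower were those of Mir7673 (-0.77), Serpina3g (-0.73 and -0.65 at 2 start sites), Ifi27l2a (-0.69), Chst4 (-0.69), Zfp808 (-0.62), Ryr1 (-0.61), Kidins220 (-0.59), Serpinb1b (-0.59) and Gm4926 (-0.59). Serpina3g and Serpinb1b encode serine protease inhibitors, Chst4 a sulfotransferase, Kidins220 a scaffold of neurotrophin receptors, and Rtl3 is a gene derived from a retrotransposon. Apart from Pgk1, each of these calls was lost without 1 to 10 of the 12 libraries. The Serpina3, Ifi27l2 and zinc finger genes lie in clusters of similar copies, so their counts are uncertain. RefSeq promoter windows (GRCm38.p6, 250 bases before to 50 after the start) were matched to 6 of the 13. Windows are shown for the 4 of these whose groups did not overlap, and for Htt, whose promoter was not called, so that the sites that changed can be read beside the one that carries the mutation. Capitals mark motif matches on either strand, and adjoining matches run together. The motifs were the GC box, searched as GGGCGG, the box whose letters are CCAAT, and the cAMP response element, searched as TGACGTCA.
Pgk1 (chrX:106186850-106187149, + strand): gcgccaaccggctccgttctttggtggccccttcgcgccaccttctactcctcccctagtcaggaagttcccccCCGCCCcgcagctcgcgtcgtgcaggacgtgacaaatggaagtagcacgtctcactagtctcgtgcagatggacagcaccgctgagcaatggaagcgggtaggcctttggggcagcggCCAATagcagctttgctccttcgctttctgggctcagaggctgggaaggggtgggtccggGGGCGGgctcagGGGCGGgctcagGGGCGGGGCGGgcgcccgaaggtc
Rtl3 (chrX:106840490-106840789, - strand): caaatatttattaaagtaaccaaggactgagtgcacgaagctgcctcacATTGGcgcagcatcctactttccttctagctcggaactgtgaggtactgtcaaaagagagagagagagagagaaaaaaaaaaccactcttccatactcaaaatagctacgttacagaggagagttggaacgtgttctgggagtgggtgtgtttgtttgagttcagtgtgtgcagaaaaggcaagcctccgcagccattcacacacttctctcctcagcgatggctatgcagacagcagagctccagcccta
Ryr1 (chr7:29125102-29125401, - strand): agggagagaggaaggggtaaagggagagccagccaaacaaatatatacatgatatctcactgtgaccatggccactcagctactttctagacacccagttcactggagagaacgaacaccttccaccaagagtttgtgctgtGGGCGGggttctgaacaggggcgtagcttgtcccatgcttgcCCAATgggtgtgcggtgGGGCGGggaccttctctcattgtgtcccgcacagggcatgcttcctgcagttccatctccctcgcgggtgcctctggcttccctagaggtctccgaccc
Serpinb1b (chr13:33083853-33084152, + strand): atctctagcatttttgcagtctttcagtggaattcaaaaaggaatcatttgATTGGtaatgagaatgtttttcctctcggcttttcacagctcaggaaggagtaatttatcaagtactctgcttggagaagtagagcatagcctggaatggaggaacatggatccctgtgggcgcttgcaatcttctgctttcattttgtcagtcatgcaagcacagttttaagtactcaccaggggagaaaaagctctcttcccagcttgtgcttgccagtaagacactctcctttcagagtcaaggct
Htt (chr5:34761490-34761789, + strand): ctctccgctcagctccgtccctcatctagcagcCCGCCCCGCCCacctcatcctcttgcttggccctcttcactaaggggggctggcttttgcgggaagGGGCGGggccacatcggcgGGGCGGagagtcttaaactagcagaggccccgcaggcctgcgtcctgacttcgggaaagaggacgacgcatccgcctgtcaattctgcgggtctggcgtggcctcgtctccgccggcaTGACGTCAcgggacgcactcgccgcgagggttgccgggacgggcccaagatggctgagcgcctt
The Pgk1 window holds 5 GC boxes and 1 CCAAT box, and the Ryr1 window 2 GC boxes and 1 CCAAT box. Rtl3 and Serpinb1b have 1 CCAAT box each and no GC box, and Htt has 4 GC boxes and 1 cAMP response element. Of 32851 such windows, 35.7% hold a GC box, 37.4% a CCAAT box and 1.79% a cAMP response element. GC content is 66.7% at Pgk1, 47.0% at Rtl3, 56.7% at Ryr1, 43.3% at Serpinb1b and 67.3% at Htt, with a median of 52.7% over all windows.

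Ryr1 encodes a ryanodine receptor that releases calcium from the endoplasmic reticulum and is a marker of SPNs. Its promoter peak (chromosome 7, 29125029 to 29125433) held 4.07, 4.73 and 5.43 CPM in double mutants and 6.22, 7.43 and 7.90 CPM in WT. The groups were separate, with a log2 change of -0.61 ± 0.15 (SE, n = 6 each; edgeR adjusted p = 0.0394), and the log2 change was -1.19 in Q140 against WT and -0.08 in Msh3KO against WT. The call was lost without any one of 9 libraries, with adjusted p up to 0.164. The Serpinb1b promoter peak (chromosome 13, 33083683 to 33084318) held 4.41, 6.13 and 6.65 CPM in double mutants and 7.04, 8.64 and 11.1 CPM in WT. It was separate too (log2 change -0.59 ± 0.14, SE; edgeR adjusted p = 0.0349), and lost its call without any one of 8 libraries. The Rtl3 promoter peak on X (106840429 to 106840847) held 3.07, 4.72 and 7.47 CPM in double mutants and 1.76, 2.48 and 2.85 CPM in WT, without overlap. Its adjusted p of 0.013 (edgeR) became 0.0914 without Q140_Msh3KO M3.

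Neither promoter of the targeted genes was called. At the Htt promoter (chromosome 5, 34760964 to 34762717) double mutants held 39.8, 44.6 and 48.3 CPM and WT 37.0, 43.1 and 54.6 CPM. The log2 change was 0.01 ± 0.11 (SE; edgeR adjusted p = 0.994). The Msh3 promoter peak (chromosome 13, 92354380 to 92355482) held 58.2, 66.5 and 71.9 CPM in double mutants and 54.3, 71.1 and 82.2 CPM in WT (log2 change -0.08 ± 0.10, SE; edgeR adjusted p = 0.878). Groups overlapped at both, so neither peak tells the genotypes apart.

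The gene body of Msh3 did differ. All 24 tested peaks inside it, apart from the promoter, had a positive log2 change, from 0.34 to 1.53 with a median of 0.79, and 10 were called higher. Groups were separate at 9 of the 24. Over all tested peaks 0.252% were called higher, and groups were separate at 0.907%. In the 200 kb on either side, 0 of 5 and 0 of 14 peaks were called by edgeR at the same threshold, with median log2 changes of -0.04 and 0.00. Over the 24 peaks the log2 change in Msh3KO against WT ran from 0.39 to 1.54 with a median of 0.77, and 4 were called. In Q140 against WT it ran from -0.57 to 0.91 with a median of -0.08, and 2 were called.

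Calls were also denser around the gene on chromosome 13. Within 20 Mb of Msh3, 57 of 2027 peaks were called (2.81%), 30 higher and 27 lower. The 10 higher peaks of the gene body are among these 57. The median absolute log2 change of the 57 was 1.11, against 0.80 at the 673 other autosomal peaks. Within 10 Mb the share was 4.65%. It was highest from 0 to 10 Mb above the middle of Msh3. In successive stretches of 5 Mb from there, 25 of 447, 21 of 365 and then 2 of 226 peaks were called. The first of these stretches takes in part of the gene body. Without Q140_Msh3KO M3 the count within 20 Mb was 36, and without any other single library it was 44 to 65. The peak with the smallest p of the whole comparison lay in an intron of Cmya5, with the predicted gene Gm4814 as its nearest start (93075857 to 93076284). It held 1.22, 1.92 and 3.13 CPM in double mutants and 7.48, 9.23 and 10.7 CPM in WT, without overlap (log2 change -2.23 ± 0.18, SE; edgeR adjusted p = 3.6e-11). Sv2c, which encodes a synaptic vesicle protein abundant in the basal ganglia, had an intronic peak (96023633 to 96024453) with 21.0, 22.0 and 26.4 CPM in double mutants and 6.72, 7.26 and 9.09 CPM in WT. That log2 change was 1.59 ± 0.13 (SE; edgeR adjusted p = 1.4e-10). In the same intron of Sv2c, a peak whose nearest start is that of Iqgap2, a cytoskeletal scaffold gene, fell to 10.04, 13.02 and 13.6 CPM in double mutants, against 22.9, 28.4 and 35.6 CPM in WT (log2 change -1.18; edgeR adjusted p = 6e-08). A peak near Zfp366 fell as well (log2 change -1.51). At these Sv2c, Gm4814, Iqgap2 and Zfp366 peaks the log2 changes in Msh3KO against WT were 1.75, -2.57, -1.30 and -1.16, and those in Q140 against WT 0.14, -0.50, -0.04 and -0.10. DNA of another strain next to a targeted allele, and an effect of the missing gene itself, cannot be told apart in this design.

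**Figure D3:**
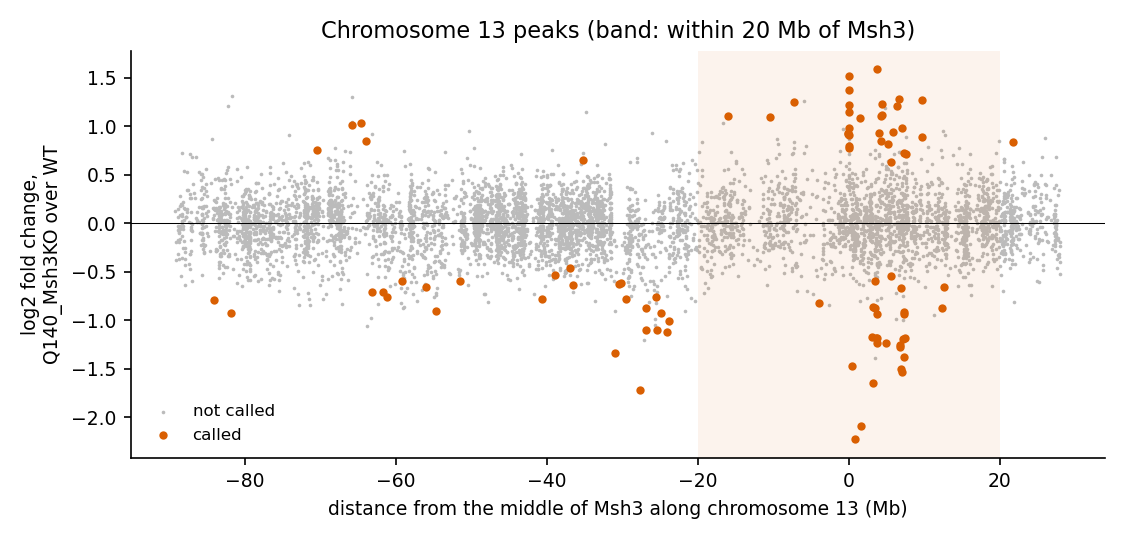
Log2 fold change of Q140_Msh3KO over WT at every tested peak of chromosome 13, against the distance from the middle of Msh3 in Mb; called peaks are large and coloured, and the band marks 20 Mb on either side. Called peaks crowd between 0 and 10 Mb above the middle of Msh3 in both directions, and these include part of a column of higher peaks inside the gene itself.

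Other calls lay farther off on the same chromosome. From 25 to 30 Mb below the middle of Msh3, 6 of 195 peaks were called and all 6 were lower, the Fam240b peak among them. The next 5 Mb toward Msh3 had 3 of 204, also lower. A stretch farther out, from 60 to 65 Mb below, had 5 of 185 called in mixed directions, 2 higher and 3 lower. Chromosome 13 as a whole had 88 called of 6405 peaks (1.37%), 36 higher and 52 lower.

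Pgk1 on X, which encodes the glycolytic enzyme phosphoglycerate kinase, had the clearest promoter change. The peak (106186569 to 106187398) held 55.4, 59.0 and 60.3 CPM in double mutants and 18.1, 24.3 and 30.3 CPM in WT, far apart in both sexes. The log2 change was 1.29 ± 0.12 (SE, n = 6 each; edgeR adjusted p = 1.3e-09), 1.18 in females and 1.41 in males. A peak at the gene's 3' end (106203586 to 106204035; nearest start Taf9b) rose as well, with 3.17, 3.78 and 4.30 CPM in double mutants and 0.680, 1.32 and 1.82 CPM in WT (log2 change 1.56; edgeR adjusted p = 0.00327). An intronic peak between them had a log2 change of -0.02, and the next peak beyond the 3' end one of -0.09, neither called. The promoter averaged 61.0 CPM in Msh3KO and 23.8 in Q140 animals. Promoter and 3' sequences of Pgk1 are widely used in drug selection cassettes of targeting vectors, and reads from such a copy would be counted at this locus. Whether a targeted allele here holds one is a detail the sources used here do not give and was not tested, so the count at Pgk1 is uncertain as a level of the native gene.

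Within 20 Mb of Htt, 27 of 2659 peaks were called (1.02%), 11 higher and 16 lower, and within Htt itself none was called by edgeR. The number depended on the fit. It was 75 (14 higher and 61 lower) in a fit of the 12 libraries alone, and 45 (15 higher and 30 lower) by DESeq2. The count was 6 to 28 without single libraries. It fell to 6 without Q140_Msh3KO M3, 9 without WT M1 or WT M3, and 12 without Q140_Msh3KO F1. It was 15 without Q140_Msh3KO F3 and 17 without Q140_Msh3KO M2, WT F2 or WT F3. The higher peak with the smallest p, 17.6 kb from Fam126a, which encodes the membrane lipid regulator hyccin, held 5.02, 6.90 and 7.81 CPM in double mutants and 1.76, 2.76 and 3.51 CPM in WT. It did not overlap (log2 change 1.28 ± 0.19, SE; edgeR adjusted p = 0.00014). Intronic peaks of Dpysl5 (log2 change 1.14), a collapsin response mediator gene, and Magi2 (1.41), a synaptic scaffold gene, were higher, with overlapping groups at Dpysl5 and separate groups at Magi2. Peaks near Wdr86 (-0.75), AI506816 (-0.80) and Bloc1s4 (-0.81) were lower with separate groups. These 6 calls held without each library in turn. Their log2 changes in Q140 against WT were 1.90, 1.26, 1.29, -1.23, -0.86 and -0.99, in the same order.

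Few peaks of striatal identity genes were called. Over all tested peaks 0.525% were called, the share to set beside each list count from here on. Among 920 peaks of 35 SPN identity genes, 5 were called, all lower (0.543%, against 0.525% of all peaks), and the list's median log2 change was -0.06 against -0.01 over all tested peaks. The count was 0 to 9 under other settings. The lead (chromosome 16, 96753062 to 96753615) has Pcp4, which encodes a calmodulin-binding peptide of SPNs, as its nearest start at 286 kb, but lies in an intron of Dscam, a neuronal adhesion gene. It held 3.96, 5.57 and 6.25 CPM in double mutants and 7.51, 8.93 and 12.1 CPM in WT. The groups were separate (log2 change -0.80 ± 0.15, SE, n = 6 each; edgeR adjusted p = 0.00337), and the call held without each library in turn. The others were the Ryr1 promoter, a second Ryr1 peak 1.62 kb from the start (log2 change -0.65), a peak near Strn (-0.74), which encodes the calmodulin-binding scaffold striatin, and an intronic peak of Adcy5 (-0.46). Adcy5 is the main adenylyl cyclase of the striatum. Its peak averaged 27.5 ± 2.11 CPM in double mutants and 37.7 ± 4.99 CPM in WT (SD, n = 6 each) without overlap (edgeR adjusted p = 0.049).

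Markers of the direct pathway neurons (dSPN) had 0 called of 205 peaks by edgeR, with a median log2 change of 0.00. Those of the indirect pathway (iSPN) had 1 of 157 (0.637%, against 0.525% of all peaks). That was an intronic peak of Ptprm, a receptor tyrosine phosphatase gene, with 2.17, 2.57 and 3.35 CPM in double mutants and 3.76, 4.61 and 5.90 CPM in WT (log2 change -0.77; edgeR adjusted p = 0.0274). Its groups were separate, but the call was lost without any one of 7 libraries (edgeR adjusted p up to 0.102). Striosome markers had 2 higher of 206 (0.971%) and matrix markers 3 higher of 131 (2.29%), against 0.525% of all peaks. Under other settings 0 to 3 and 0 to 4 peaks of these lists were called. The striosome peaks were an intronic peak of Oprm1 (log2 change 0.68), the μ-opioid receptor, and one of Bach2 (1.05), a transcription factor gene. The Oprm1 peak held 6.55, 7.43 and 8.16 CPM in double mutants and 3.85, 4.20 and 6.84 CPM in WT, overlapping through 1 WT animal, and lost its call without any one of 9 libraries. The matrix peaks lay far from Epha4 (log2 change 1.03, 326 kb), an axon guidance receptor gene, and from Calb1 (0.74 and 1.25, 174 and 167 kb), which encodes calbindin. At Epha4 double mutants held 4.07, 7.16 and 9.38 CPM and WT 2.35, 3.52 and 4.33 CPM, with a slight overlap (edgeR adjusted p = 0.00783).

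Genes of cAMP and dopamine signalling had 3 lower of 761 peaks (0.394%, against 0.525% of all peaks; 0 to 5 under other settings), near Prkar2a (log2 change -0.74) and Pde3a (-0.71) and in Adcy5. Prkar2a encodes a regulatory subunit of protein kinase A. Its peak, 8.84 kb from the start and in an intron of the neighbouring gene Slc25a20 (chromosome 9, 108682968 to 108683632), held 4.34, 5.59 and 6.92 CPM in double mutants and 7.51, 9.40 and 11.2 CPM in WT, without overlap (edgeR adjusted p = 0.0035). Activity-regulated genes had 1 lower of 389 (0.257%). It lay 59.9 kb from Nptx2 (log2 change -0.65), which encodes a pentraxin that clusters AMPA receptors. It lost its call without any one of 10 libraries.

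Potassium channel genes had 4 higher and 4 lower of 834 peaks (0.959%, against 0.525% of all peaks), and 0 to 11 called under other settings. The lead fall was in an intron of Kcnj6, which encodes the G protein-gated channel GIRK2, with 2.72, 3.96 and 5.02 CPM in double mutants and 6.17, 7.27 and 8.45 CPM in WT (log2 change -0.87; edgeR adjusted p = 0.00694). The groups were separate. The lead gain was 705 kb from Kcna4 (log2 change 0.91; edgeR adjusted p = 0.00924), and a second Kcna4 peak 926 kb away was lower (-0.84), so peaks assigned to 1 gene at such distances need not belong to it. Both leads lost their call without Q140_Msh3KO M3 (edgeR adjusted p = 0.0533 at Kcnj6 and 0.0527 at Kcna4). The other potassium channel peaks were near Kcnj3 (0.80), Kcnd2 (1.00) and Kcnq5 (0.63), all higher, and Kcnc4 (-0.56) and Kcnh3 (-0.55), both lower, the last in an intron of Spats2. Calcium and sodium channel genes had 2 higher of 864, in Ryr3 (0.93) and Cacna2d1 (0.81), and the 2 lower Ryr1 peaks (0.463%, with 0 to 7 called under other settings).

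At the synapse, 3 of 1452 peaks (0.275% called in either direction) of glutamate receptor and postsynaptic genes were higher and 1 was lower. The higher were 2 distal peaks of Grm7 (log2 changes 1.09 and 0.80), which encodes a presynaptic metabotropic glutamate receptor, and an intronic peak of Dlgap1 (0.73), a postsynaptic scaffold gene. The lead Grm7 peak averaged 4.06 ± 1.32 CPM in double mutants and 1.89 ± 0.48 CPM in WT (SD, n = 6 each), with overlap, and lost its call without Q140_Msh3KO M3 (edgeR adjusted p = 0.0641). The lower was in Nlgn1 (-0.70), the adhesion gene neuroligin 1, and its call was lost without any one of 9 libraries. GABA synapse genes had 0 called of 428 by edgeR. Developmental regulators that Polycomb complexes repress in neurons had 1 higher (nearest start Pax6, in an intron of Elp4, 0.96) and 1 lower (Foxd3, -0.99) of 967 (0.207%). Groups overlapped at both, and the calls were lost without any one of 8 and 9 libraries. Clustered protocadherins, the cell surface identity genes, had 0 called of 69 and a median log2 change of -0.14.

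DNA repair genes that modify repeat instability had 0 called of 148 peaks by edgeR, with a median log2 change of 0.01. Chaperone genes had 2 higher of 211 (0.948%, against 0.525% of all peaks; 0 to 3 under other settings). Both were named for Dnajb9, which encodes a cochaperone of the endoplasmic reticulum, at 378 and 32.9 kb from its start (log2 changes 0.74 and 0.81). The farther of these held 11.9, 15.6 and 21.8 CPM in double mutants and 6.57, 9.995 and 11.1 CPM in WT, without overlap (edgeR adjusted p = 0.0267), and lost its call without any one of 5 libraries. Over all lists together, 38 of 8047 peaks were called (0.472%), 20 higher and 18 lower.

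Peaks named for markers of other cell types were counted and summed as well. Each sum takes every peak whose nearest start is a listed gene, promoter or not, so it does not measure how many such cells were present. Calls on these lists are to be set beside 0.525% of all peaks. Astrocyte markers had 0 called of 164 peaks by edgeR, with a summed level of 772 to 823 CPM in double mutants and 797 to 925 CPM in WT. Oligodendrocyte markers had 1 lower of 129, named for Cnp but in an intron of Ttc25 (log2 change -0.76; call lost without any one of 10 libraries and with a replicate block), with sums of 718 to 776 CPM in double mutants and 744 to 835 CPM in WT. Precursor markers had 0 of 42 (159 to 184 CPM in double mutants and 168 to 191 in WT). Microglial markers summed to 183 to 227 CPM in double mutants and 193 to 214 CPM in WT. Endothelial and pericyte markers had 1 lower of 62, at Pecam1 (log2 change -0.60; call lost without any one of 5 libraries and with promoter share as a term), with sums of 199 to 236 CPM in double mutants and 217 to 259 CPM in WT. Cortical glutamatergic neuron markers had 1 higher of 219, named for Lamp5 at 60.4 kb but in an intron of Pak7 (log2 change 0.87), with sums of 1064 to 1155 CPM in double mutants and 1048 to 1171 CPM in WT. The Lamp5 peak held 5.14, 7.23 and 9.05 CPM in double mutants and 3.08, 4.05 and 4.15 CPM in WT, without overlap (edgeR adjusted p = 0.00546). Striatal interneuron markers had 0 of 167 (639 to 676 CPM in double mutants and 649 to 684 in WT). The part of these cells in the called peaks was not tested.

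**Figure D4:**
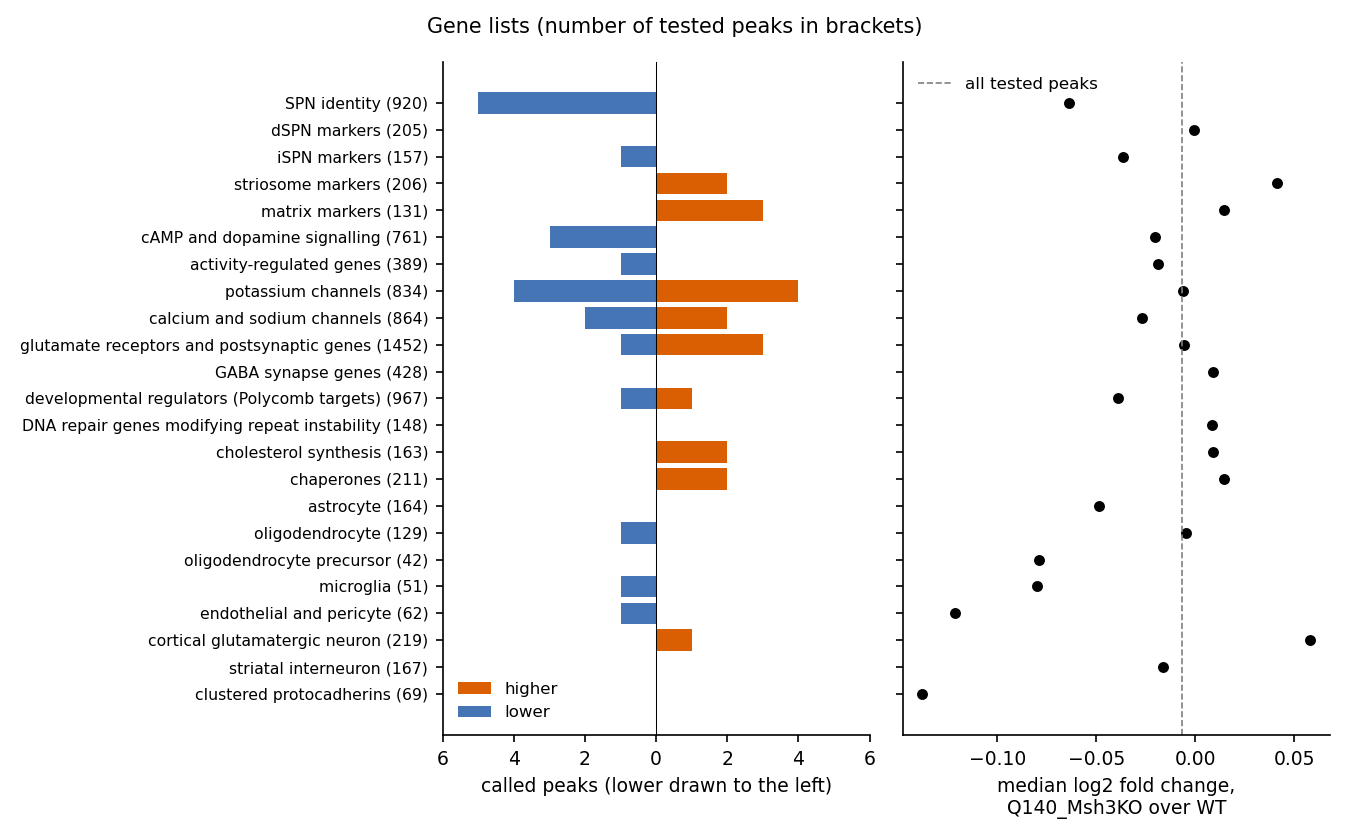
Left, the number of called peaks on each gene list, with higher in Q140_Msh3KO drawn to the right and lower to the left; right, the median log2 fold change of Q140_Msh3KO over WT, with a dashed line at the median of all tested peaks. No list has more than 5 called peaks in 1 direction, and every median lies between -0.14 and 0.06.

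Repeats were unevenly represented. No repeat was annotated at 91.3% of higher and 71.5% of lower peaks, against 77.8% of all tested. L1 elements, the main LINE family, held 6 higher and 7 lower peaks, or 1.63% and 1.75%, against 8.57% of all tested. Long terminal repeat elements were split by direction. ERVL-MaLR elements held 4 higher and 26 lower peaks, or 1.09% and 6.5%, against 1.92% of all tested, and ERVK elements 2 higher and 22 lower, or 0.544% and 5.5%, against 2.44%. ERVL (1 higher and 11 lower), B2 (0 and 9) and L2 (1 and 8) leaned the same way. The young LINE families L1Md_T and L1Md_A had 0 called of 4393 and 0 of 2654 peaks by edgeR, and IAPEz-int 0 of 1126. Reads from copies this similar map poorly, so counts there are uncertain.

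Whether the called peaks differ in animals outside the comparison was read from Q140 against Msh3KO, which uses none of these 12 libraries, although all 24 share the fit. There 8.62% of peaks were called, and the alleles of Htt differ in the same direction while Msh3 differs in the opposite one. Of the 321 higher autosomal peaks away from both genes, 316 were above 0 in Q140 against Msh3KO and 252 (78.5%) were called higher, with a median log2 change of 0.82. Of the 352 lower, 2 were above 0 and 315 (89.5%) were called lower, with a median of -0.96. Over all 138366 such peaks, 49.9% were above 0 and the median was 0.00. From the other side the overlap was a small share. The 252 made up 5.8% of the 4345 peaks higher in Q140 against Msh3KO, and the 315 made up 4.21% of the 7479 lower. Those 4345 peaks had a median log2 change of 0.35 in double mutants against WT, and the 7479 a median of -0.29. Near Msh3 the pattern turned over. The 30 higher peaks there had a median of -0.46 in Q140 against Msh3KO and the 27 lower a median of 0.85.

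**Figure D5:**
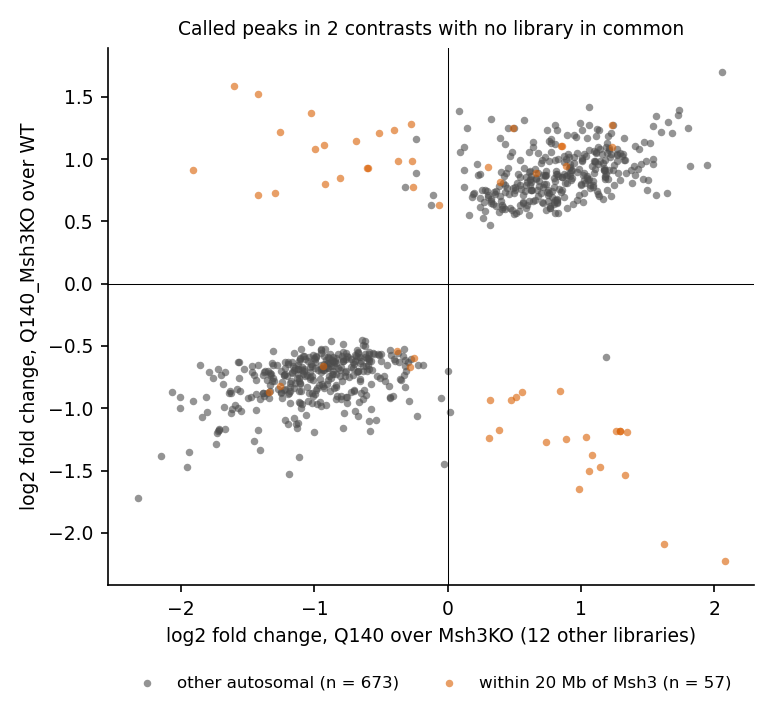
Each point is a called peak, with the log2 fold change of Q140_Msh3KO over WT on the vertical axis and that of Q140 over Msh3KO, from 12 other libraries, on the horizontal axis. Grey autosomal peaks away from both genes fall in the lower left and upper right, and most coloured peaks within 20 Mb of Msh3 fall on the opposite diagonal.

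The same was read across the sexes, so that peaks were chosen in animals of 1 sex and measured in the other. The 734 peaks higher in Q140 against Msh3KO in females had median log2 changes in males of 0.87 in that contrast and 0.61 in double mutants against WT. The 967 lower peaks had medians in males of -1.03 and -0.41. Of peaks chosen in males, the 1040 higher had medians in females of 0.86 and 0.41, and the 2781 lower had medians of -0.69 and -0.42. In each of these 4 sets the median for double mutants against WT was nearer to 0 than that for Q140 against Msh3KO. The sets were chosen in Q140 against Msh3KO, which favours a larger median there. A smaller change in double mutants therefore cannot be read from these medians.

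Split by sex, few peaks could be called. In females 12 peaks passed (0.00821%), and in males 27 (0.0185%), of which 7 and 11 lay within 20 Mb of Msh3. The interaction of genotype and sex had 0 called peaks by edgeR, with 3915 at an unadjusted p under 0.05. At the 10 higher autosomal peaks with the largest changes the log2 change was 1.02 to 1.67 in females and 1.21 to 1.72 in males. At the 10 lower it was -1.82 to -1.09 in females and -1.84 to -0.88 in males. These peaks were chosen with separate groups over both sexes, so the shared sign was set by the choice.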

How the data were processed

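Neuronal nuclei were sorted by NeuN from frozen striatum and assayed by ATAC-seq. The authors deposited 1 table of whole-number read counts per peak over a common peak set, with annotation columns. BWA, SAMtools, Picard, MACS2, featureCounts and the build GRCm38 are named per the submitters' processing notes, with no versions or settings stated there. Columns were matched to samples by the animal label, and 0 other sample columns were present.

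Counts were fitted here with edgeR 4.0.16 in R 4.3.3 (quasi-likelihood, robust, TMM), with genotype group and sex as terms over 24 libraries. Of 147020 peaks, 146155 passed filterByExpr with a count minimum of 10, and 281 deposited peaks carried no gene symbol. P-values were adjusted over all tested peaks by Benjamini-Hochberg, with a threshold of 0.05. SE is the absolute log2 change divided by the square root of F. The pipeline was tested on simulated data. CPM were computed from the counts. P-values set the difference between groups against the spread between animals, which was estimated over all 24 libraries.

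Peaks named were the 10 largest called changes per direction with separate groups outside 20 Mb of Htt and Msh3, the 3 of smallest p per direction near each gene, called promoters, list leads, and genes with most calls. Host genes of introns were looked up in RefSeq by transcript, and other list peaks were named because few were called. Members and lists were chosen with earlier results of these data known. Alternatives used limma 3.58.1, DESeq2 1.42.0, other scalings, filters and terms, and leaving out libraries. Peak sequences were not used here. Results for a few genes are not reported here.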

Additional observations from a re-analysis of the deposited data

Results flagged for a closer look

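In 11 of 180 groups of 6 animals examined, 1 library lay apart from the other 5 by Dixon's test, and chance gives about 1 in 20 groups. Q140_Msh3KO M1 had 12.66% of its counts in its 10 highest peaks, against 3.325% to 4.74% in the other double mutants. The same library was lowest at the Iqgap2 peak, with 10.04 CPM against 12.77 to 13.62, and highest at a Slc9a9 peak, with 5.563 CPM against 2.943 to 3.88. Q140_Msh3KO M3 was highest at the Igbp1b peak, with 6.225 CPM against 2.578 to 3.206 in the other double mutants. It was also highest at the Slc39a10 peak, with 5.433 CPM against 2.389 to 2.985, and at the Magi2 peak, with 5.433 CPM against 2.405 to 3.3. Q140_Msh3KO F2 was highest at the Cnp peak, with 3.226 CPM against 2.035 to 2.362.

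Among WT animals, WT F2 was highest at the Mir3970 peak, with 6.303 CPM against 2.039 to 3.291, and at the Nptx2 peak, with 8.355 CPM against 5.776 to 6.308. WT F3 was highest at the Oprm1 peak, with 6.841 CPM against 3.851 to 4.525. WT M1 was highest at an Ifi27l2b peak, with 11.06 CPM against 5.717 to 7.702.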

How the results depend on the processing

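The total of 768 called peaks was 694 to 1133 under other scalings, filters, terms and tools on all animals, and 200 to 1023 when 1 library was left out. Outside both windows, 673 became 153 to 911 without single libraries and 1032 with promoter share as a term. Within 20 Mb of Msh3, 57 became 36 to 65, and within 20 Mb of Htt, 27 became 6 to 28. The Htt count was 75 in a fit of the 12 libraries only and 45 by DESeq2. In females only, the total, outside, Msh3 and Htt counts were 12, 3, 7 and 1, and in males only 27, 14, 11 and 1. With a replicate block 939 peaks were called (429 higher and 510 lower), of which 738 were among the 768. Same-numbered double mutant and WT animals did not deviate together (r from -0.291 to 0.148, with only M3 closest to its own number). No pairing by number was seen there, but these values cannot exclude a shared litter, day or batch. Of 85 named called peaks, 33 kept their call under every alternative that used both sexes and tested the peak, and 0 reversed under them. There were up to 23 such alternatives per peak. Among the 33, Pik3c2g, Mir3970 and Stk3 were tested under 22. The causes were not tested. The median tested peak had 25.5 counts per library, and the part of depth in the calls was not tested.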
